A study of Rattus norvegicus with 12 samples.

Results

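Rat colon carcinoma cells exposed to 4.5 mM butyrate for 2, 6, 12, 16 or 24 h (5 arrays, 1 for each hour) were compared with the same cells left untreated for 2 or 24 h (2 arrays). These 7 arrays were taken from a series of 12, chosen by the sample titles alone. The other 5 arrays hold cells given 3 mM aspirin for the same hours and serve here as another comparison. They also enter the fits of butyrate against untreated cells, where they help to set the spread behind the p-values. All arrays carry total RNA from CC531, an established line that arose from a chemically induced colon tumour of the rat, so every group shares the genotype of 1 line grown without stroma or host. The labels name no vehicle for the untreated cells and give no carrier, medium or cell density. Nothing in the labels says whether the arrays came from separate cultures, so the p-values below measure only the spread between these arrays, which may be technical. For butyrate against untreated cells the hours of each group were treated as replicates, so this spread also holds any change over the hours.

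Butyrate is produced by bacterial fermentation of fibre in the colon, where epithelial cells take it up through monocarboxylate transporters and oxidise it in mitochondria as a fuel. It also inhibits class I and II histone deacetylases, which raises histone acetylation. In cultured colon carcinoma cells it is known for slowing growth, lowering Myc and cyclin D1 mRNA and raising genes of differentiated cells.

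The deposited intensities were linear, scaled alike on every array (the mean without the lowest and highest 2% of values was 991.6 to 994.7) and negative for 21.5 to 25.4% of probe sets on the 7 arrays. They were raised to a floor of 90.91, put on a log2 scale, and 6118 of 8740 probe sets bright enough on average were tested. Of 13 fixed markers of epithelium and colon, 10 were tested, and their summed intensity was 64626.9 to 76306 on the untreated and 61021.2 to 70244.7 on the butyrate arrays. Krt8, a keratin of simple epithelium, read 15890.4 and 15438 on the untreated 2 and 24 h arrays and 14834, 15113, 15798, 16003 and 16016 on the butyrate arrays of 2, 6, 12, 16 and 24 h, the order used for all values below. The 7 values lay close together (log2 change -0.01, SE 0.10, adjusted p = 0.974). None of the fixed markers of fibroblasts (7 tested), blood cells (5), endothelium (2), hepatocytes (3) or neurons (3) passed the test with limma when each gene was taken by its brightest probe set, and 1 of these genes had an unadjusted p under 0.05. A less bright probe set of Col1a1, a fibroblast collagen, was called higher (1 of 4, log2 change 2.32, adjusted p = 0.0165, and 0.0761 or 0.128 without the untreated 2 or 24 h array). The summed fibroblast markers were 4277.9 to 5037.7 untreated and 3060.3 to 4266.9 with butyrate, carried mainly by 1 probe set of Acta2. The summed blood markers were 555.1 to 983.8 and 411.2 to 973.8, the endothelial ones 251.7 to 351.1 and 131.2 to 258, and the neuronal ones 690.3 to 940 and 287.7 to 1223.9. Those of hepatocytes were 342.9 to 445.8 and 275.4 to 1743.2, the highest from Serpina1 at 24 h (1455.7), a gene that did not pass (adjusted p = 0.261). As all RNA was pooled on each array, fewer cells of a kind and less RNA per cell cannot be told apart.

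Which genes differed after butyrate was asked first over all hours together. With limma on all 12 arrays and Benjamini-Hochberg adjustment, 716 of 6118 probe sets (11.7%) passed an adjusted p of 0.05, 476 higher and 240 lower with butyrate. Of the 716, 584 differed at least 2-fold, and for 676 (94.4%) every butyrate array lay outside both untreated arrays, as for 1703 of all 6118 tested (27.8%). The calls rest on the same difference, so nothing is read from their larger share. The split between higher and lower depended on the scaling: it was 415 higher and 288 lower after quantile normalization, and 370 higher and 437 lower after median centring, which moved the median change of all probe sets from 0.00 to -0.19. Of the 147 called probe sets picked by the rule for named genes, none changed direction under either scaling, but 17 no longer passed after quantile normalization and 15 after median centring.

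Each untreated array was then used alone as the control, with the butyrate and aspirin arrays kept in the fit. Against the 24 h array only, 357 probe sets passed (246 higher, 111 lower), of which 189 were among the 716. Against the 2 h array only, 462 passed (220 higher, 242 lower), of which 265 were among the 716. The 108 probe sets that passed the same way in all 3 fits, 80 higher (61 genes) and 28 lower (20 genes), also passed when any 1 of the 7 arrays was left out. Over all 716 calls, 708 remained without the butyrate 2 h array, but 476, 343, 309 and 388 remained without the 6, 12, 16 or 24 h array. The untreated arrays themselves were at least 2-fold apart for 1011 of 6118 probe sets (16.5%), for 90 of the 716 called (12.6%) and for 2 of the 108 (1.85%). Both called sets were chosen by their difference from the untreated arrays, and the 108 by their difference from each alone. Nothing is therefore read from their smaller shares. The genes described first below come from those of the 108 with every butyrate array outside both untreated arrays. Their lack of overlap between the groups was thus fixed by this choice, and nothing is read from it.

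**Figure D1:**
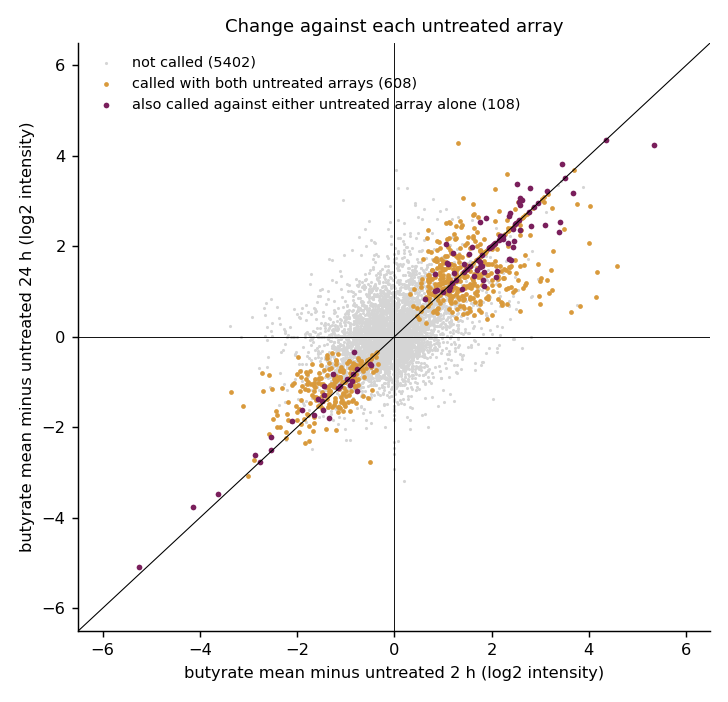
Each point is 1 of the 6118 probe sets tested: the mean log2 intensity of the 5 butyrate arrays minus the untreated 2 h array (x) and minus the untreated 24 h array (y), with equality on the diagonal. Purple marks the 108 probe sets called with both and with either untreated array, orange the other 608 called and grey the rest. Since both axes share the butyrate arrays, the distance from the diagonal, which is the difference between the untreated arrays, is what the plot shows.

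Array by array, the number of probe sets at least 2-fold outside both untreated arrays was 363 (5.93%) at 2 h, 655 (10.7%) at 6 h, 910 (14.9%) at 12 h, 973 (15.9%) at 16 h and 1085 (17.7%) at 24 h. Those higher numbered 222, 468, 612, 617 and 691, and those lower 141, 187, 298, 356 and 394. More were higher than lower at each hour on the deposited scale and after quantile normalization. After median centring this was so at 2 h only (182 higher, 164 lower) and the counts were level at 16 h (476 and 475), while more were lower at 6 h (282 higher, 298 lower), 12 h (406 and 467) and 24 h (482 and 567). The total was smallest on the 2 h array in all 3 scalings. With 1 array for each hour there is no test of this order. Against the untreated 2 h array alone the butyrate 2 h array had 991 probe sets 2-fold apart (16.2%), about as many as the untreated arrays had between themselves.

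**Figure D2:**
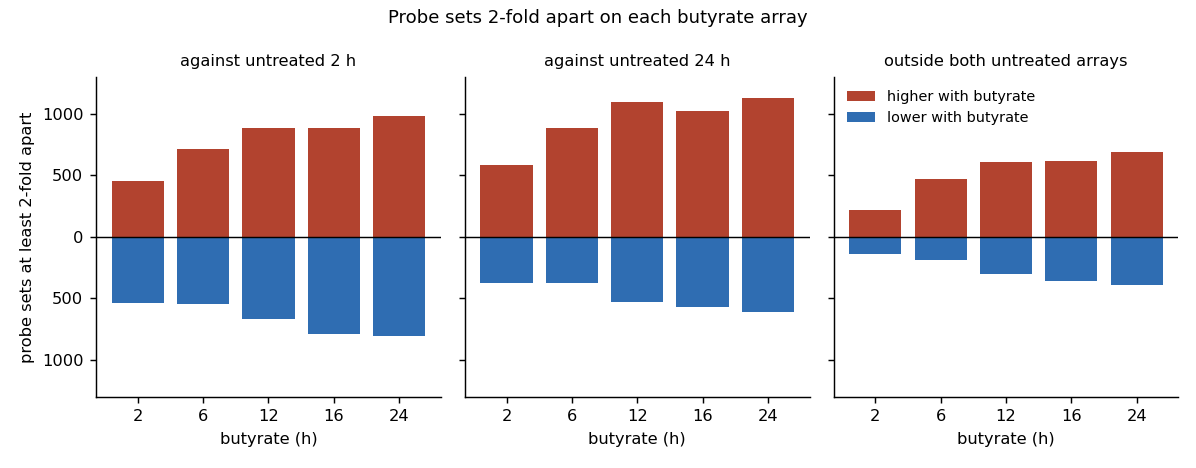
Bars give the number of probe sets at least 2-fold higher (red, upward) or lower (blue, downward) on each butyrate array against the untreated 2 h array (left), the untreated 24 h array (middle) or both (right). On the right the bars go from 222 higher and 141 lower at 2 h to 691 higher and 394 lower at 24 h.

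Arrays of the same hour allow a comparison in which no array is used again. Between butyrate and untreated at 2 h, 454 of 6118 probe sets were at least 2-fold higher and 537 lower, and at 24 h 1129 were higher and 611 lower. Both directions turned with the scaling: after median centring 506 were higher and 472 lower at 2 h, and 702 higher and 1064 lower at 24 h, and after quantile normalization 501 and 415 at 2 h and 861 and 842 at 24 h, where only the 2 h direction turned. Higher in both pairs were 226 probe sets, which is 49.8% of the 2 h and 20% of the 24 h list. Lower in both were 82, which is 15.3% and 13.4% of the lists, and 90 went opposite ways. After median centring the shares were 36% and 25.9% for higher and 23.9% and 10.6% for lower. These shares come from 4 arrays and were not tested against each other. Nor were they tested against the part of all 6118 probe sets that each list makes up, so nothing is read from their size.

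For each called probe set the first hour was read from which this and every later butyrate array lay at least 2-fold outside both untreated arrays. Of 476 called higher, 111 (23.3%) did so from 2 h, 138 (29%) from 6 h, 47 from 12 h, 28 from 16 h, 20 at 24 h only and 132 at no hour. Of 240 called lower, 22 (9.17%) did so from 2 h, 56 (23.3%) from 6 h, 27 from 12 h, 22 from 16 h, 16 at 24 h only and 97 at no hour. Over all probe sets tested, 3.82% of the 3062 on the rising side did so from 2 h and 6.17% from 6 h, and 0.72% and 2.26% of the 3056 on the falling side. As the called probe sets were chosen by the same difference, nothing is read from their larger shares.

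The largest rises came from genes of several kinds. Prnp, which encodes the prion protein of the cell surface, read 132 and 284 without and 2453, 5144, 6031, 7372 and 7999 with butyrate. The lowest butyrate array was that of 2 h. The change was 27.8-fold (log2 change 4.79, SE 0.56, adjusted p = 0.000351). Slc27a1, a long-chain fatty acid transporter, read -139 and 6.1 untreated and 1057, 1952, 2855, 2011 and 1818 with butyrate. The untreated arrays were both under the floor, so the rise was at least 20.3-fold (log2 change 4.34, SE 0.62, adjusted p = 0.00128). Plat, which encodes tissue plasminogen activator, read 52.0 and 84.1 in untreated cells and 334, 1145, 1557, 1379.7 and 1403 with butyrate. Both untreated values were again under the floor and the 2 h array stood far below the later ones, for a rise of at least 11.3-fold (log2 change 3.50, SE 0.51, adjusted p = 0.00154).

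Aldehyde, sugar and prostaglandin enzymes were among them. Ptgr1, prostaglandin reductase 1, read -4.7 and 128 without and 583, 813, 1648, 1716 and 1569 with butyrate. The values of the 12, 16 and 24 h arrays were above those of 2 and 6 h, and the rise was at least 10.7-fold (log2 change 3.43, SE 0.51, adjusted p = 0.00165). Aldh3a2, fatty aldehyde dehydrogenase, read 1.1 and 71.4 untreated and 368, 802, 998, 875 and 678 with butyrate. It rose at least 7.76-fold (log2 change 2.96, SE 0.38, adjusted p = 0.000644), with 2 of 3 probe sets called. Sord, sorbitol dehydrogenase, read -118 and -101 in untreated cells and 289.9, 516, 1023, 958 and 908 with butyrate. It was negative on both untreated arrays, above the floor on every butyrate array and rose at least 7.35-fold (log2 change 2.88, SE 0.42, adjusted p = 0.00154). For St3gal5, the enzyme that makes the ganglioside GM3, the values were 292 and 234 without and 1080.4, 2287, 2253, 1902 and 1597 with butyrate. The highest butyrate arrays were those of 6 and 12 h, and the rise was 6.73-fold (log2 change 2.75, SE 0.42, adjusted p = 0.00183).

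Nuclear factors stood beside these enzymes. Egr1, an immediate-early zinc finger transcription factor, read 353 and 251 untreated and 1698, 2748, 2765, 2267 and 2936 with butyrate. It was already high at 2 h and stayed high through 24 h, an 8.18-fold rise (log2 change 3.03, SE 0.34, adjusted p = 0.000306), and 3 of its 4 tested probe sets were called higher. Bmal1, a core activator of the circadian clock, read 118 and 44.5 in untreated cells and 342, 728, 1180.0, 988 and 735 with butyrate. It peaked on the 12 h array, and the rise was at least 7.07-fold (log2 change 2.82, SE 0.41, adjusted p = 0.00154). Max, the dimerisation partner of MYC, read -179.9 and -9.4 without and 774, 372, 269, 818 and 725 with butyrate. Both untreated values were negative while the butyrate values had no order in time, and the rise of at least 5.94-fold (log2 change 2.57, SE 0.39, adjusted p = 0.00187) was seen on 1 of its 2 probe sets.

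C5h1orf210, of which no role is given here, read 138 and 108 untreated and 1099, 1404, 1452, 1730.0 and 2029 with butyrate. It rose 12.4-fold (log2 change 3.63, SE 0.40, adjusted p = 0.000305). Ndrg3, of the NDRG family, read 242 and 179.8 in untreated cells and 635, 1485, 1765, 1846 and 1894 with butyrate. The 2 h array lay well under the later ones, and the rise was 6.82-fold (log2 change 2.77, SE 0.44, adjusted p = 0.00228). The other genes of this group were Gch1, treated below, Zswim8 (log2 change 2.76) and Arhgef7, a guanine nucleotide exchange factor for Rac and Cdc42 (at least 6.15-fold).

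**Figure D3:**
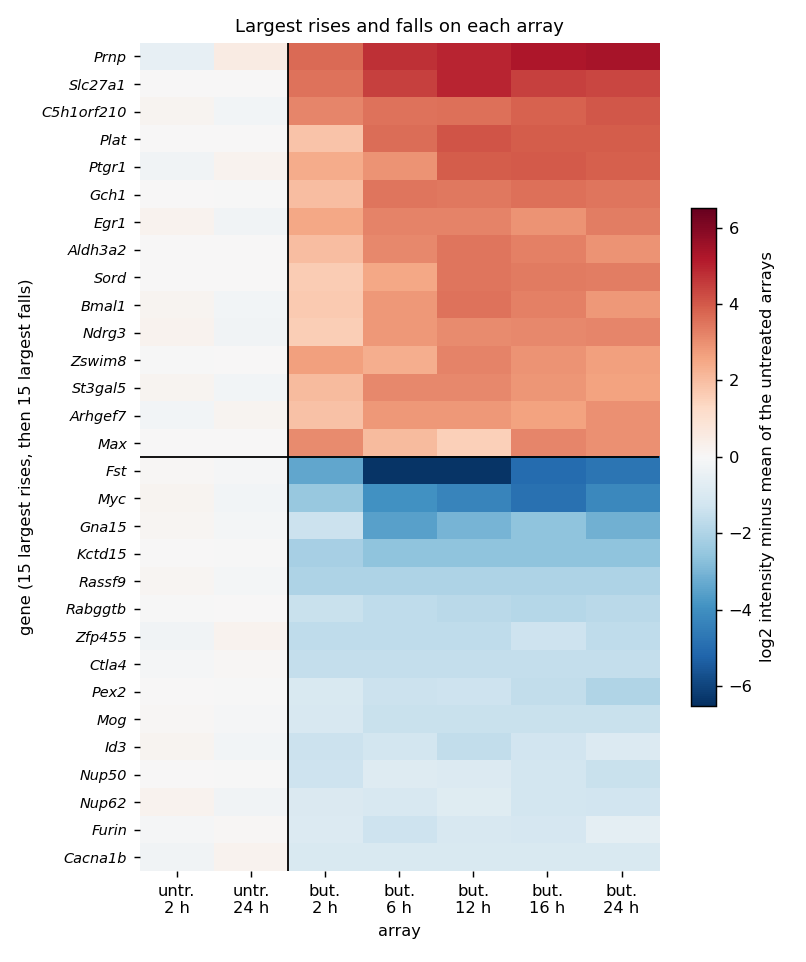
Log2 intensity of the 15 largest rises and 15 largest falls (rows) on the untreated (untr.) and butyrate (but.) arrays (columns), minus the mean of the untreated arrays, after the floor, with red higher and blue lower. By the rule that chose these genes, every butyrate column is red for the rises and blue for the falls. The 2 h difference is the smallest of the 5 for 13 of the 15 rises, all but Zswim8 and Max, and for 7 of the 15 falls. Gch1, Egr1, Fst and Myc are drawn from the probe set with the largest change.

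The promoters of such genes, 250 bases before to 50 after the start as RefSeq gives them on GRCr8, show what the responding genes carry in front of them. They are printed for 3 of the largest rises and 1 of the falls, all of which hold a GC box, since butyrate-responsive promoters are commonly described by GC boxes, the sites of Sp1 and Sp3. Capitals mark motifs found on either strand. A GC box is the run GGGCGG, the box named after its letters CCAAT is searched as named, and the TATA box is searched as the run TATAAA.
Prnp (chr3:139638826-139639125, plus strand): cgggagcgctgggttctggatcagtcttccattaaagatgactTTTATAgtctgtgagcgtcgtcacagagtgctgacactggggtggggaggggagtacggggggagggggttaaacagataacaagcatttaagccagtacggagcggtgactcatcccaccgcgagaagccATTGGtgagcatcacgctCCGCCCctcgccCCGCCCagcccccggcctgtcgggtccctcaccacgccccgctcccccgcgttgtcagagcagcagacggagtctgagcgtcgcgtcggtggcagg
Bmal1 (chr1:176766078-176766377, plus strand): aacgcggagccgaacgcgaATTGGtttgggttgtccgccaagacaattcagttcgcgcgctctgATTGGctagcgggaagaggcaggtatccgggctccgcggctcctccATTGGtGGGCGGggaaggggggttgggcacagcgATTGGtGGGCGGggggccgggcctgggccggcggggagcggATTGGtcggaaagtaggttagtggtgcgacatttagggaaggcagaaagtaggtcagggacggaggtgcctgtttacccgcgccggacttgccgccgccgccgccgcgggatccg
St3gal5 (chr4:105692590-105692889, plus strand): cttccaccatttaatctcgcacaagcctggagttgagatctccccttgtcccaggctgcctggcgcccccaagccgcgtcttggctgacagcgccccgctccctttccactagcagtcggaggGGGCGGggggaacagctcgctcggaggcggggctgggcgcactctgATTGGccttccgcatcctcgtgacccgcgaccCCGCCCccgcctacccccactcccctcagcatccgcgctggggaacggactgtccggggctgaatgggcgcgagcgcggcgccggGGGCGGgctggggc
Rabggtb (chr2:245510730-245511029, minus strand): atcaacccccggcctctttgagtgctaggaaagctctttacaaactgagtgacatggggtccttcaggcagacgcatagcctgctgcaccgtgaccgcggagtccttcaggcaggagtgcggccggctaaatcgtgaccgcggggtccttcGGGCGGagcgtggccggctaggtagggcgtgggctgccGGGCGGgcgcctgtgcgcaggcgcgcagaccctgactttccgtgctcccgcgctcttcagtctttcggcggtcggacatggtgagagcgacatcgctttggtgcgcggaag
Prnp has 2 GC boxes, 1 CCAAT box and 1 TATA box, Bmal1 2 GC boxes and 5 CCAAT boxes, St3gal5 3 GC boxes and 1 CCAAT box, and Rabggtb, which fell, 2 GC boxes. Of the 15 largest rises 13 had a promoter in the table and 10 of these held a GC box, with none in those of Slc27a1, Egr1 and Max. Of the 15 largest falls 10 had one and 6 held a GC box, with none for Gna15, Rassf9, Zfp455 and Ctla4. Over all genes tested, 3010 of 3647 had a promoter in the table, and 60.7% of these held a GC box (1827 of 3010). The share was 73.7% for genes with a probe set called higher (207 of 281 promoters) and 64.1% for those called lower (82 of 128). Among genes called higher against either untreated array alone it was 88.5% (46 of 52), and among those called lower so 66.7% (10 of 15). The promoters' median GC content was 63.0% and 62.3% for called higher and lower, 64.2% and 60.3% for those called so against either untreated array alone, and 60.7% for all tested. It was thus above that of all tested in 3 of these 4 sets, and the part of base composition in the GC box shares was not tested. The E-box CACGTG, the site of MYC and MAX, was in 9.25% of promoters of genes called higher, 15.6% of those called lower and 9.04% of all tested. A CCAAT box was in 45.2%, 43.0% and 38.0%, a TATA box in 7.12%, 9.38% and 9.93%, and the cyclic AMP response element TGACGTCA in 2.14%, 2.34% and 2.69%. Among genes called higher against either untreated array alone, 13.5% of the 52 promoters held an E-box and 48.1% a CCAAT box. Among those called lower so, the shares of the 15 promoters were 6.67% and 33.3%. The order of the E-box shares was thus reversed in these smaller sets. These are matches of letters, in which motifs may overlap, and not sites of binding.

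The largest falls included a secreted inhibitor, growth regulators and signalling proteins. Fst, which encodes follistatin, the binding protein that neutralises activin, read 5199 and 4634 without and 514, 408, 294, 367 and 568 with butyrate. The groups lay far apart from 2 h on, with an 11.7-fold fall (log2 change -3.55, SE 0.36, adjusted p = 0.000291), and the gene's other probe set fell at least 36.1-fold. Myc, a transcription factor of cell growth and ribosome synthesis, read 3789.8 and 3821 untreated and 1002, 684, 556, 388 and 367 with butyrate. It was low at 2 h and lower on each later array, a 6.81-fold fall over the group (log2 change -2.77, SE 0.33, adjusted p = 0.000407), and its other probe set fell at least 15.4-fold. Gna15, a G protein alpha subunit of the Gq class, read 1148 and 964 in untreated cells and 398, 85.8, 128, 175 and 121 with butyrate. The 6 h array was under the floor, and the fall was at least 6.66-fold over the group (log2 change -2.74, SE 0.46, adjusted p = 0.00311).

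Kctd15, a BTB domain protein, read 562 and 548 without and 126, -46.9, 75.9, -24.3 and -21.4 with butyrate. On 4 of the 5 butyrate arrays it was under the floor, so the fall was at least 5.72-fold (log2 change -2.52, SE 0.28, adjusted p = 0.000305). Rabggtb, the catalytic subunit of the enzyme that attaches geranylgeranyl groups to Rab proteins, read 5109 and 5340.1 untreated and 1888, 1648, 1551, 1454 and 1565 with butyrate. The butyrate values were close together and far below both untreated ones, a 3.23-fold fall (log2 change -1.69, SE 0.17, adjusted p = 0.000291). Id3, an inhibitor of helix-loop-helix factors, read 2524 and 1977 in untreated cells and 862, 965, 740.5, 934 and 1216 with butyrate. It fell 2.40-fold (log2 change -1.26, SE 0.22, adjusted p = 0.00442). Nup62, a nuclear pore protein, read 6974 and 5165 without and 3119.5, 2867, 3470.2, 2602 and 2529 with butyrate. It fell 2.07-fold (log2 change -1.05, SE 0.17, adjusted p = 0.00276), with 3 of its 4 probe sets called. Furin, a proprotein convertase, read 4550.4 and 5114 untreated and 2632, 1876, 2344, 2288 and 3158 with butyrate. The fall was 1.99-fold (log2 change -0.99, SE 0.20, adjusted p = 0.00783) on 1 of 2 probe sets.

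The other falls of this group were Rassf9, Zfp455, Ctla4, Pex2, Mog, Nup50, another nuclear pore protein, and Cacna1b. Of these, Rassf9, Zfp455, Ctla4, Mog and Cacna1b read under 400 on both untreated arrays and at or near the floor with butyrate, so their log2 changes (-1.98, -1.57, -1.55, -1.38 and -0.99) are limited by the floor. Ctla4, Mog and Cacna1b are genes of lymphocytes, oligodendrocytes and neurons, and their differences from the aspirin arrays did not pass (butyrate minus aspirin -0.22, 0.04 and 0.00 on the log2 scale, adjusted p = 0.246, 0.795 and 1).

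**Figure D4:**
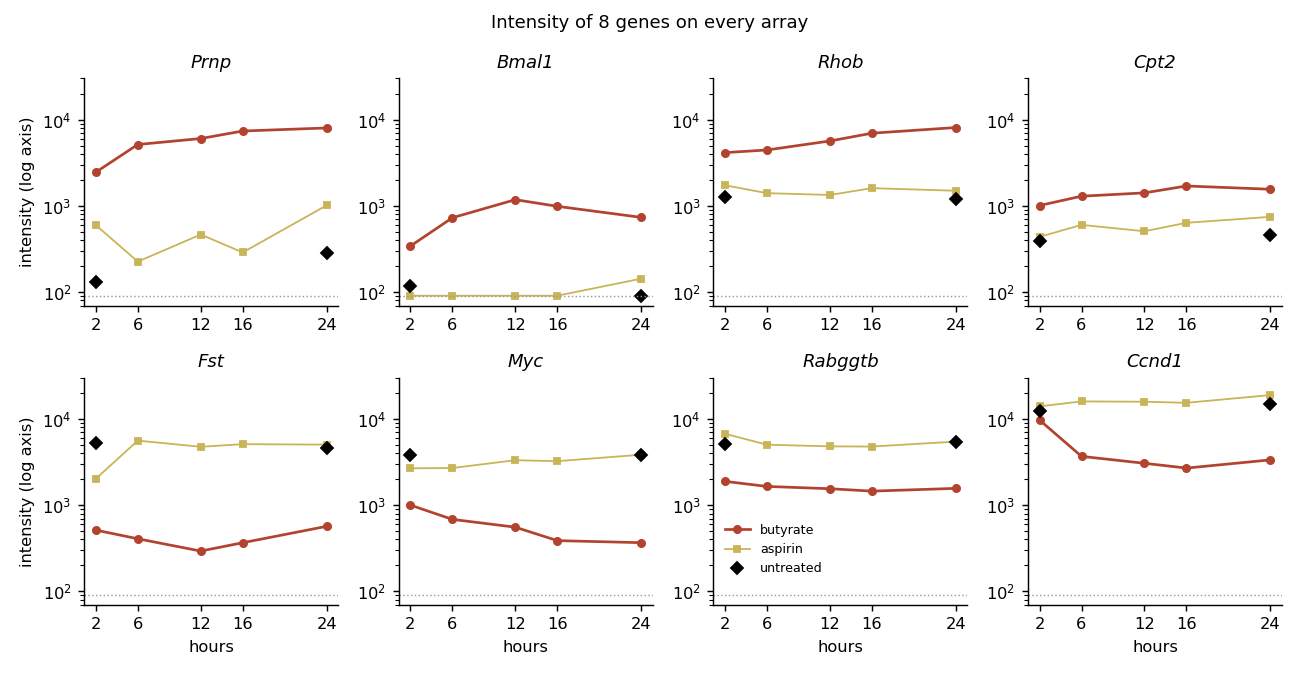
Intensity on a log axis against hours for butyrate (red circles), aspirin (yellow squares) and untreated cells (black diamonds at 2 and 24 h), with the floor as a dotted line. The upper row (Prnp, Bmal1, Rhob, Cpt2) lies above the untreated arrays at every hour of butyrate, and the lower row (Fst, Myc, Rabggtb, Ccnd1) below them, Ccnd1 at 2 h by the least.

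The gene lists below were written from general knowledge, and each gene is represented by its brightest probe set. Over all 3647 genes tested, 413 (11.3%) were called, 281 higher (7.7%) and 132 lower (3.62%), with a median log2 change of 0.015. These shares are the background against which the lists are given, and no list was tested as a whole. With median centring every list median was lower by about the same shift as that of all probe sets, so medians from 0 to 0.19 turned negative.

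Genes of butyrate's own uptake and use were measured first. Of 8 tested, 2 were higher and none lower, with a median of 0.48. Slc16a1, the monocarboxylate transporter MCT1 that carries butyrate, did not pass on either of its probe sets (log2 changes 0.11 and -0.13, adjusted p = 0.862 and 0.693). Bdh1, the mitochondrial hydroxybutyrate dehydrogenase of ketone body metabolism, read 614 and 333 in untreated cells and 1081, 1131, 888, 1198 and 1157 with butyrate. Every butyrate array was above both untreated ones and it rose 2.40-fold (log2 change 1.26, SE 0.33, adjusted p = 0.0259), a call lost without the untreated 24 h array (adjusted p = 0.185) or the butyrate 16 or 24 h array (0.0625 and 0.0525). Bsg, the chaperone of the monocarboxylate transporters, differed by 0.52 (adjusted p = 0.048), and this call was lost without either untreated array or any butyrate array but the 2 h one (adjusted p 0.0515 to 0.276).

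Chromatin genes, the targets of butyrate as a deacetylase inhibitor and their partners, were called about as often as all genes. Of 15 deacetylases, acetylases and chromatin proteins 1 was higher and 1 lower (13.3% called, against 11.3% of all genes), with a median of -0.55. Of the 15 changes 12 were at or under 0 and 7 had an unadjusted p under 0.05, against 1788 and 1056 of all 3647 genes. Sirt2, a deacetylase of another class that needs NAD, read 398 and 1082 without and 1291, 1470.1, 2299.6, 3115 and 3479 with butyrate. The untreated 2 h array was the lowest, and without it the 3.3-fold rise (log2 change 1.72, SE 0.42, adjusted p = 0.0208) did not pass (adjusted p = 0.253), nor without the butyrate 12, 16 or 24 h array (0.0558, 0.0601 and 0.0531). Hmga1, a chromatin protein of growing cells, had a log2 change of -0.77 (adjusted p = 0.0232, and 0.0576 to 0.151 without either untreated array or the butyrate 12 or 16 h array). Hdac2, a class I deacetylase, did not pass (log2 change -0.40, SE 0.26, adjusted p = 0.326). Of 4 histone genes tested only H1f4, a linker histone, passed (log2 change at least 1.57, adjusted p = 0.0181), a call not kept without either untreated array. With aspirin H1f4 read 198, 124.9, 146.8, 249.7 and 238.9, above both untreated values (31 and 80.7). The differences of H1f4 and Sirt2 between the drugs did not pass (butyrate minus aspirin 0.54 and 0.71, adjusted p = 0.166 and 0.0964). That of Hmga1 passed (-0.77, adjusted p = 0.0235).

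Oxidation of fatty acids and ketone bodies was the list with the most rises for its size among those described here: of 39 genes, 12 were higher (30.8%) and 1 lower, with a median of 0.62, and 33 of 39 changes were above 0. Of the 13 calls, 6 remained without the untreated 2 h array, 8 without the untreated 24 h array and 6 to 13 without 1 butyrate array. Slc27a1 is described above. Cpt2, the inner membrane carnitine palmitoyltransferase, read 392 and 463 untreated and 1009, 1295, 1414, 1700.3 and 1557 with butyrate. All butyrate arrays were above both untreated ones, a 3.23-fold rise (log2 change 1.69, SE 0.28, adjusted p = 0.00311) that passed with any of the 7 arrays left out. Cpt1a, its outer membrane partner and the rate-limiting step of mitochondrial uptake, read 1031 and 842 in untreated cells and 3040.2, 3436, 4168, 3299 and 3577 with butyrate. It rose 3.74-fold (log2 change 1.90, SE 0.34, adjusted p = 0.00442), and the adjusted p was 0.0501 without the untreated 24 h array. The gene that fell was Pex2, which encodes a protein of peroxisome assembly and read 1225 and 1164 without and 595, 461, 473, 390.4 and 311 with butyrate. Its values were under both untreated arrays at every hour, and lowest at 24 h, a 2.74-fold fall (log2 change -1.45, SE 0.27, adjusted p = 0.00558).

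Of 31 genes of lipid and cholesterol synthesis 3 were higher and none lower (median 0.23), of which 1 remained without the untreated 2 h and 2 without the untreated 24 h array. Srebf1, the transcription factor of lipid synthesis, was negative on both untreated arrays and read 439.7, 438, 394, 324 and 237 with butyrate, a rise of at least 3.93-fold (log2 change 1.98, SE 0.28, adjusted p = 0.00121). Among 37 oxidative phosphorylation genes 1 was higher and 3 lower (median -0.11). Ndufv3, a subunit of complex I, read 556 and 858 untreated and 2367, 2634, 3058, 3386 and 2865 with butyrate. It rose 4.11-fold (log2 change 2.04, SE 0.22, adjusted p = 0.000305). With aspirin it read 2038, 1543, 1587, 1573 and 1931, also above both untreated arrays (butyrate minus aspirin 0.72, adjusted p = 0.022). By contrast, Cyc1 and the carriers Slc25a3 and Slc25a5 differed by -0.87, -0.47 and -0.82 from untreated cells. These 3 calls were lost without the untreated 24 h array, those of Cyc1 and Slc25a5 also without the untreated 2 h array, those of the carriers without the butyrate 16 h array and that of Slc25a5 without the butyrate 12 h array (adjusted p 0.0516 to 0.131).

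Growth genes were called mostly lower. Of 35 cell cycle and DNA replication genes, 5 were lower (14.3%) and 2 higher, and 30 of 35 changes were at or under 0, with a median of -0.70. Of the 7 calls, 1 remained without the untreated 2 h array, 3 without the untreated 24 h array and 3 to 7 without 1 butyrate array. Ccnd1, which encodes cyclin D1 of the G1 phase, read 12479 and 14935 in untreated cells and 9701, 3679, 3057, 2690.2 and 3349 with butyrate. At 2 h it was near the untreated arrays and from 6 h on far under them, a 3.44-fold fall over all hours (log2 change -1.78, SE 0.36, adjusted p = 0.00884) called on 3 of its 5 probe sets. Without the untreated 2 or 24 h array the adjusted p was 0.0641 or 0.0892. Ccnb1, which encodes cyclin B1 of mitosis, read 5422 and 4249 without and 2988, 2157, 1472, 1118 and 496 with butyrate. It was lower on each later array, a 3.44-fold fall over the group (log2 change -1.78, SE 0.47, adjusted p = 0.0287), which did not pass without the untreated 2 or 24 h array (adjusted p = 0.202 and 0.12) or the butyrate 12 or 16 h array (0.0667 and 0.0805). Tyms, thymidylate synthase, read 374 and 362 untreated and 172, 57.7, 36.5, 45.4 and 54.9 with butyrate. It was under the floor from 6 h on, a fall of at least 3.56-fold (log2 change -1.83, SE 0.36, adjusted p = 0.008), with an adjusted p of 0.0513 without the untreated 2 h array.

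Cyclin D3 went the other way. Ccnd3 read 2072 and 2196 in untreated cells and 4055, 5495, 4151, 4379 and 4556 with butyrate. The groups did not overlap, and it rose 2.11-fold (log2 change 1.08, SE 0.18, adjusted p = 0.00338), with 3 of 4 probe sets called and this call kept with any of the 7 arrays left out. Cdkn1a, which encodes the cyclin-dependent kinase inhibitor p21, read -276 and -140.2 without and 4.4, 407, 412, 321 and 379.5 with butyrate. The butyrate arrays were above the floor from 6 h but not at 2 h, and the difference did not pass (log2 change 1.65, SE 0.66, adjusted p = 0.117). The gene's other probe set stayed near or under the floor on all 7 arrays (log2 change 0.12, adjusted p = 0.811). Of 14 growth arrest genes only Ndrg2 was higher, and leaving out either untreated array (adjusted p = 0.208 and 0.202) ended this call, as did leaving out any butyrate array but that of 2 h (0.0615 to 0.106).

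Of 21 genes of MYC and of ribosome assembly in the nucleolus, 7 were lower (33.3%) and 2 higher, Max and Mxi1, which encodes a repressor that competes with MYC for MAX, with a median of -0.79. Of the 9 calls, 2 remained without the untreated 2 h array, 4 without the untreated 24 h array and 6 to 9 without 1 butyrate array. Beside Myc itself, the lower ones were the RNA polymerase I subunits Polr1a and Polr1b (-1.84 and -1.41), the nucleolar proteins Ncl, Gnl3 and Ddx21 (-1.39, -1.49 and -0.94) and the pseudouridine synthase Dkc1 (-2.03), of which all but Polr1a were named after their values were seen. Polr1a was measured near the floor: it read 520 and 203 on the untreated arrays and was negative on all butyrate arrays. Without the untreated 2 h array its log2 change was -1.16. With aspirin it was negative at 16 and 24 h too (-11.5 and -9.3). Among the ribosomal proteins 0 of 37 passed with limma and 4 had an unadjusted p under 0.05, with changes from -0.99 to 0.16 and a median of -0.17. Small as they were, 34 of these 37 changes were at or under 0, against 1788 of all 3647 genes.

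RNA processing and splicing genes were called in 1 direction, with 5 of 30 lower (16.7%), none higher and a median of -0.45. None of the 5 calls remained without the untreated 2 h array and 2 remained without the untreated 24 h array. Sfpq, a splicing factor of nuclear paraspeckles, read 4984 and 5045 untreated and 2529, 1714, 1006, 763 and 406 with butyrate. It was lower on each later array, a 4.72-fold fall over the group (log2 change -2.24, SE 0.58, adjusted p = 0.0259) called on 1 of its 2 probe sets. Without the untreated 2 or 24 h array its adjusted p was 0.154 or 0.147, and without the butyrate 12, 16 or 24 h array 0.0667, 0.0741 and 0.0524. On the aspirin arrays it was also under the untreated level, and the difference between the drugs did not pass (butyrate minus aspirin -0.95, adjusted p = 0.0542).

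**Figure D5:**
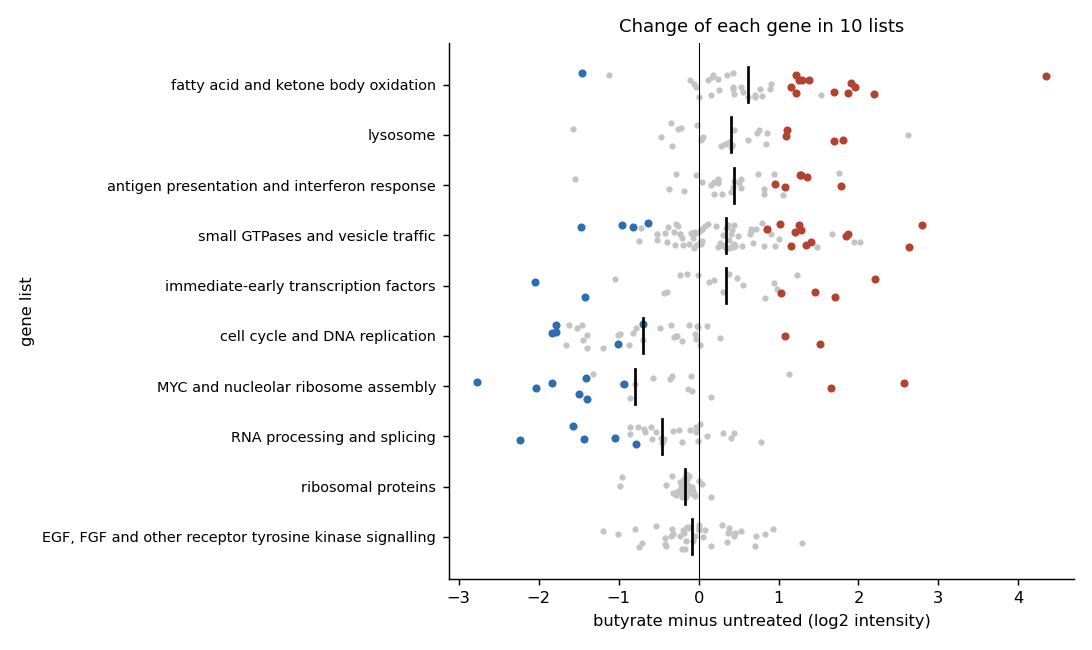
Each point is 1 gene of the list named on the left, placed at its log2 change with butyrate, with genes called higher in red, lower in blue and others in grey, and the list median as a black bar. The scatter up and down within a list carries no value. Medians go from 0.62 for fatty acid and ketone body oxidation to -0.79 for MYC and nucleolar ribosome assembly. The ribosomal proteins have no call and a median of -0.17, with 34 of 37 changes at or under 0.

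Among 22 immediate-early transcription factors 4 were higher (18.2%) and 2 lower, with a median of 0.35, and 2 calls (Egr1 and Egr2) remained without either untreated array. Egr2 rose at least 3.27-fold (log2 change 1.71, adjusted p = 0.00668) from values near the floor. Fosl1, an AP-1 subunit, differed by -2.04 (adjusted p = 0.0208), which did not pass without either untreated array or the butyrate 12, 16 or 24 h array (0.0558 to 0.199).

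The plasminogen, matrix protease and inhibitor list had 1 gene higher of 22, Plat, and 3 lower (median 0.14), and 2 of the 4 calls remained without either untreated array. Furin is described above. Pcsk6, another proprotein convertase, read 2863 and 2992 in untreated cells and 2273, 522, 289, 149.8 and 109 with butyrate. It was close to the untreated arrays at 2 h and lower on each later array. The fall over the group was 8.26-fold (log2 change -3.04, SE 0.86, adjusted p = 0.0368), called on 1 of its 2 probe sets. This call was lost when any array but the butyrate 2 h one was left out (adjusted p 0.055 to 0.189). Timp2, an inhibitor of matrix metalloproteinases, differed by -0.91 (adjusted p = 0.016, and 0.0792 or 0.0694 without the untreated 2 or 24 h array). In the TGF-beta and activin list, 2 of 26 were lower and none higher (median -0.27), namely Fst and Smad2, a signal carrier of activin and TGF-beta (-1.18, adjusted p = 0.0141, and 0.0829 without the untreated 2 h array).

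Synthesis of tetrahydrobiopterin, the cofactor of nitric oxide synthases and aromatic amino acid hydroxylases, had both its first enzyme and that enzyme's regulator among the rises. Gch1, GTP cyclohydrolase 1, read 580.3 and 413 without and 1723, 3832, 3771, 4635 and 4309 with butyrate. The 2 h array stood under the later ones and above both untreated arrays, a 7.07-fold rise (log2 change 2.82, SE 0.37, adjusted p = 0.000644), with 2 of 3 probe sets called. Gchfr, its feedback regulator, read 183 and 321 untreated and 613, 1727, 3373, 4987 and 5051 with butyrate. It was higher on each later array, a 10.2-fold rise over the group (log2 change 3.34, SE 0.69, adjusted p = 0.00927), with an adjusted p of 0.111 without the untreated 2 h array. In the whole list 3 of 15 were higher and none lower (median -0.08), of which 1 remained without the untreated 2 h and 2 without the untreated 24 h array.

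Vesicle traffic was a list with calls both ways: of 83 small GTPase and vesicle genes 12 were higher (14.5%) and 4 lower, with a median of 0.34. Of the 16 calls, 3 remained without the untreated 2 h array, 4 without the untreated 24 h array and 9 to 16 without 1 butyrate array. Arf6, a small GTPase of endosome recycling, read 13569 and 13204 in untreated cells and 7921, 5954, 7491, 7044 and 6358 with butyrate. The groups did not overlap and the fall was 1.94-fold (log2 change -0.95, SE 0.13, adjusted p = 0.00106), kept with any of the 7 arrays left out. The Rab proteins Rab26 and Rab3a were higher by 1.86 and at least 1.35 (adjusted p = 0.0138 and 0.0102), lost without the untreated 2 h (0.144) and 24 h array (0.0636).

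Of 26 lysosome genes 4 were higher and none lower (median 0.41), of which none remained without the untreated 2 h and 1 without the untreated 24 h array. Ctsd, the protease cathepsin D, read 1382 and 1804 without and 2940.1, 4196, 5487, 8482 and 9062 with butyrate. It was higher on each later array, 3.51-fold over the group (log2 change 1.81, SE 0.54, adjusted p = 0.0443), and was lost when any array but the butyrate 2 h one was left out (adjusted p 0.063 to 0.256). Antigen presentation and interferon genes had 6 of 31 higher and none lower (median 0.44), of which 1 remained without the untreated 2 h and 3 without the untreated 24 h array. Irf1, a transcription factor of the interferon response, read 908 and 1469 untreated and 4260.0, 2773, 2930.5, 2751 and 2402 with butyrate. Its highest value was that of 2 h, and the rise was 2.57-fold (log2 change 1.36, SE 0.29, adjusted p = 0.0102), with an adjusted p of 0.114 without the untreated 2 h array.

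The cytoskeleton list was mixed, with 4 of 49 higher and 4 lower (median 0.03). Of the 8 calls, 1 remained without the untreated 2 h array, 3 without the untreated 24 h array and 3 to 8 without 1 butyrate array. Rhob, a small GTPase that acts on actin and endosomes, read 1259 and 1208 in untreated cells and 4141, 4443, 5650.4, 6954 and 8091 with butyrate. It was above both untreated arrays from 2 h and higher on each later array, a 4.60-fold rise over the group (log2 change 2.20, SE 0.24, adjusted p = 0.000305). Csrp2, a LIM domain protein of actin bundles, read 236 and 507 without and 660.1, 2619, 3401, 4308 and 5068 with butyrate. It rose 7.63-fold (log2 change 2.93, SE 0.60, adjusted p = 0.00911), with an adjusted p of 0.124 without the untreated 2 h array. Actb, the cytoplasmic actin often used as a reference, differed by -0.35 (adjusted p = 0.0292), and this call was lost without either untreated array or the butyrate 12 or 16 h array (0.0533 to 0.0725). Lgals1, the lectin galectin 1, read 159.9 and 349 untreated and 494, 1321, 3425, 5358 and 9765 with butyrate. Its values increased from hour to hour, 11-fold over the group (log2 change 3.46, SE 0.82, adjusted p = 0.0187), and did not pass without either untreated array (adjusted p = 0.184 and 0.0723) or the butyrate 12 or 16 h array (0.0563 and 0.0592).

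Keratins of the line went in opposite directions. Krt18, the partner of Krt8, read 21546 and 21284 in untreated cells and 15180.4, 11053, 11548, 10787 and 11755 with butyrate. It was 1.79-fold lower (log2 change -0.84, SE 0.15, adjusted p = 0.00406) on this probe set and differed by -0.48 on the other, which was called too (adjusted p = 0.0258, and 0.0868, 0.0867 or 0.0601 without the untreated 2 h, untreated 24 h or butyrate 16 h array). Krt19 was higher on both its probe sets (0.87 and 1.17, adjusted p = 0.0166 and 0.0172), and both calls were lost without the untreated 2 h array (0.187 and 0.107), the latter also without the untreated 24 h array (0.0873). In the list of keratins and intestinal differentiation 2 of 37 were higher and 2 lower (median -0.06), and of these calls none remained without the untreated 2 h, 1 without the untreated 24 h and 1 to 4 without 1 butyrate array. Tff3 and Muc2, products of goblet cells, did not pass (log2 changes -0.41 and -0.65, adjusted p = 0.677 and 0.172).

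Some signalling genes were among the 108 probe sets called with either untreated array. Pik3r2, a regulatory subunit of phosphoinositide 3-kinase, read 157 and 91.8 without and 449.9, 538, 588, 511 and 593 with butyrate. It rose 4.44-fold (log2 change 2.15, SE 0.33, adjusted p = 0.00188). Ptpn1, the phosphatase of the insulin receptor, read 2450.2 and 2159 untreated and 5507, 5772, 6184, 5521 and 5740.2 with butyrate. It rose 2.50-fold (log2 change 1.32, SE 0.19, adjusted p = 0.00121), with 4 of 5 probe sets called. Plcd1, a phospholipase C, was negative on both untreated arrays and read 314, 336, 359, 363 and 517 with butyrate, a rise of at least 4.09-fold (log2 change 2.03, SE 0.23, adjusted p = 0.000351). In these lists 3 of 32 insulin and IGF genes were higher and none lower (median -0.02), and 6 of 64 protein kinase C, G protein and cyclic nucleotide genes were higher and 2 lower (median 0.06). Of the latter 8 calls, 2 remained without the untreated 2 h, 3 without the untreated 24 h and 4 to 8 without 1 butyrate array.

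Of 22 ER chaperones and disulfide isomerases, 3 were higher and none lower (median 0.21, and 0.02 with median centring). P4hb, protein disulfide isomerase, read 5764 and 3931 in untreated cells and 7815, 9876, 11800.3, 11518 and 11006 with butyrate. It rose 2.16-fold (log2 change 1.11, SE 0.19, adjusted p = 0.00343) on 2 of 3 probe sets. Of 85 solute carriers and pumps 6 were higher and 4 lower (median -0.13), and of these 10 calls 2 remained without the untreated 2 h, 4 without the untreated 24 h and 4 to 10 without 1 butyrate array. Slc7a1, the carrier of arginine and lysine, read 2363 and 1515 without and 1300.5, 734, 728, 716 and 663 with butyrate. It was 2.36-fold lower (log2 change -1.24, SE 0.29, adjusted p = 0.0178), with an adjusted p of 0.151 without the untreated 2 h array.

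Several lists had few or no calls. None passed among 42 genes of EGF, FGF and other receptor tyrosine kinase signalling (limma, 7 at an unadjusted p under 0.05) and 19 lipid carriers (3). Of 63 neurotransmitter receptors 1 was called, of 44 ion channels 2, of 53 MAP kinases and phosphatases 2, of 34 proteasome and ubiquitin genes 1 and of 33 glycolysis genes 2. Their shares, from 0 to 6.06%, were under the 11.3% of all genes.

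Butyrate was last set against the other drug at matched hours, with the hour as a block, which uses the butyrate arrays again but none of the untreated ones. Of 6118 probe sets, 1540 (25.2%) passed, 952 higher and 588 lower with butyrate. The split was 636 and 584 after quantile normalization, and 568 and 1516 after median centring. Among the largest rises, Prnp read 599.7, 226, 465, 289 and 1015 with aspirin and was 3.58 higher with butyrate on the log2 scale (SE 0.41, adjusted p = 0.00637). Sord was under the floor on all 5 aspirin arrays, a difference of at least 2.88 (SE 0.32, adjusted p = 0.00586). Bmal1 was under the floor on 4 of 5 (at least 2.88, adjusted p = 0.00564). Ptgr1 read 820.5, 264, 584, 316 and 638 with aspirin, above both untreated arrays, and its difference between the drugs did not pass (1.27, adjusted p = 0.0699). Egr1, Aldh3a2, Zswim8 and Arhgef7 were also above both untreated arrays on every aspirin array. Their differences between the drugs passed (1.925, 2.13, 1.29 and 1.08, adjusted p = 0.01, 0.00772, 0.0197 and 0.0167). Cpt1a read 914, 1126, 2197, 2422 and 2079 with aspirin and was 1.10 higher with butyrate (adjusted p = 0.0196).

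Among the falls, Fst read 2021, 5602, 4749, 5092 and 5031 with aspirin and differed by -3.34 with butyrate (adjusted p = 0.00517). Its lowest aspirin value, at 2 h, lay above every butyrate value. Myc read 2671, 2696, 3318, 3235 and 3844 with aspirin and differed by -2.48 with butyrate (adjusted p = 0.00756). On the probe set given above, Id3 read 3354, 3714, 3584, 3959.5 and 4928 with aspirin, above both untreated arrays at every hour, whereas on its other, brighter one the aspirin 6 h array (4564.7) was under both untreated arrays (5215.2 and 5821.5). On the former its difference between the drugs (-2.06 with butyrate, adjusted p = 0.00202) was larger than its difference from untreated cells (-1.26), a comparison of sizes that was not tested. Ccnd1 differed by -2.00 between butyrate and aspirin (adjusted p = 0.011), and Ccnd3 by 1.10 (adjusted p = 0.00461).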

How the data were processed

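Total RNA of CC531 cells was measured on 12 expression arrays. The authors deposited 1 intensity per probe set and array, on a linear scale per the deposited values. How they were computed from the scans, and with which software, is not given in the sources used here. Of 8799 probe sets, 59 controls were left out, 7006 named 1 gene in the array annotation, 308 several and 1426 none. No further normalization was made. Values under 90.91, the size of the 10th percentile of all values, were raised to it, log2 was taken, and the 2622 probe sets whose average log2 fell short of the 30th percentile (6.54) were dropped. This floor makes folds of dim genes lower bounds, written "at least".

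Groups were compared with limma 3.58.1 (R 4.3.3; lmFit, then eBayes with a trend in the variance) over the 12 arrays (9 residual degrees of freedom), and butyrate with aspirin on 10 arrays with the hour as a block (4). P-values were adjusted by the Benjamini-Hochberg method and called at 0.05. The fits were tested on simulated data. Precision is limited by the number of arrays.

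The comparison, the 48 gene lists and the rule for named genes were chosen with earlier results of these data known. Named were the 15 largest rises and 15 largest falls among probe sets of 1 gene called the same way with both and with either untreated array, up to 4 called genes of each list by adjusted p, a fixed set of growth, chromatin and differentiation genes, and cell type markers. Whether hours pair the arrays was not decided from the data: untreated arrays share only 2 and 24 h with butyrate. Alternatives were other floors, no filter, 2 normalizations, no trend, 7 arrays only, the hour as a factor or block, and each array left out.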

Additional observations from a re-analysis of the deposited data

Results flagged for a closer look

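Of 49 probe sets whose array values are given above, 10 had 1 of the 5 butyrate arrays far from the other 4, and in 9 of these it was the 2 h array. By chance about 1 in 20 such groups would be set apart if the 5 arrays were replicates, but they are of different hours. The genes were also chosen for their change, so the number has no test. The butyrate 2 h array was the lowest for Plat (333.9, others 1144.7 to 1557), Ndrg3 (634.8, others 1485.2 to 1894.1), Gch1 (1723.2, others 3771.2 to 4634.8) and Cdkn1a (4.4, others 321 to 412.3). It was the highest for Ccnd1 (9701.1, others 2690.2 to 3678.7), Slc7a1 (1300.5, others 663.2 to 734.1), Krt18 (15180.4, others 10787.3 to 11754.8), Tyms (171.9, others 36.5 to 57.7) and Kctd15 (125.9, others -46.9 to 75.9), the latter 2 at or near the floor. For Plcd1 the 24 h array was the highest (517.2, others 314 to 362.6). For Plat, Ndrg3 and Gch1 the 2 h value still lay above both untreated arrays, and for Ccnd1, Slc7a1, Krt18, Tyms and Kctd15 still below both.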

How the results depend on the processing

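Of 6118 probe sets, 716 were called between butyrate and untreated cells. The count was 608 to 807 with the other floors, with either normalization or without the variance trend. It was 358 without the filter, where 8740 probe sets were tested, 306 with only the 7 untreated and butyrate arrays and 317 with the hour as a factor. Leaving out 1 array gave 310 to 1166, namely 357 and 462 without the untreated 2 or 24 h array, and 1166, 498, 344, 310 and 400 without the butyrate 2, 6, 12, 16 or 24 h array. With the 2 and 24 h arrays alone and the hour as a replicate block, limma called 0 (347 at an unadjusted p under 0.05), and since only 2 hours can be paired, whether the hours pair the arrays was not settled. Of the 108 probe sets called with either untreated array, 98 to 108 remained called the same way under every setting but that block fit, where all 108 kept their direction. Against aspirin, 1540 probe sets were called, 778 without the filter, 1220 to 2084 with the other floors, either normalization, no trend or no replicate block, and 235 to 1643 without 1 hour. With the floor doubled, the butyrate 2 h array had 634 probe sets 2-fold apart from the untreated 2 h array and 593 from the untreated 24 h array, against 991 and 956. The cause of these moves was not tested. Many dim values lie at the floor (13.4 to 18.5% of those tested on the 7 arrays), where no fold can be measured.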
